A study of Mus musculus with 9 samples.

Results

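Keratins and other intermediate filament genes were followed through the conversion of mouse embryonic stem cells toward extraembryonic endoderm. The members were the rows of the deposited table whose symbol is Krt7, Krt8, Krt17, Krt18, Krt19, Krt42, Vim or Nes. All 8 were found, of 37975 rows in all, each as a single row with a usable estimate in all 9 libraries. The libraries came from wild-type R1 embryonic stem cells (ESC), from the wild-type line IM8AR of XEN cells, the stem cells of extraembryonic endoderm, and from an ESC line (genotype Sox17 overexpression) in which doxycycline (dox) was added at 100 ng/ml to switch on the transcription factor gene Sox17. That line was sampled without dox, after 7, 21, 35 and 49 h of dox, after 6 days of dox, and as Sox17-XEN. For Sox17-XEN the label names 30 days of dox and 30 days of culture free of it in an unclear order, while its description calls the cells dox-independent. ESC were grown on mouse embryonic fibroblasts, with serum and LIF, and XEN cells in medium conditioned by such fibroblasts. The day 6 label also holds the word SORT, without saying what was sorted. Each group is 1 library, so no value below has a replicate error, and the Sox17 line appears to be 1 line whose clonal origin the labels do not give. In such bulk RNA, fewer cells expressing a gene and less RNA per cell cannot be told apart.

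Intermediate filaments are the rope-like part of the cytoskeleton. Keratin filaments form only when an acidic type I keratin pairs with a basic type II keratin, so epithelial cells make members of both types. Krt8 (type II) and Krt18 (type I) are the pair of simple, single-layered epithelia and the first keratins of the mouse embryo, where trophectoderm and extraembryonic endoderm carry them. Krt19 is a further type I keratin of simple epithelia and Krt7 a further type II keratin, known from ducts and trophoblast. Krt17 is best known from stratified epithelium and skin appendages, and Krt42 is a type I keratin that lies beside it. Vim (vimentin) forms filaments by itself in mesenchymal cells and fibroblasts and is also found in parietal endoderm. Nes (nestin) joins vimentin filaments and is known from neural progenitors.

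Values are FPKM, which scales fragment numbers by gene length and by library size, so that levels of different genes can be compared. Differences are given on the log2(FPKM + 1) scale, which understates the change of low genes, and a difference of at least 2 log2 units is called past the threshold. The authors' lower confidence bound was 0 for 67 of the 72 member values. The absolute depth is unknown, and the commonest ratio of low values placed the depth of the other libraries at 61.6% to 127% of R1 ESC. The cell labels were checked with marker genes. Pou5f1 stood at 723 to 1080 FPKM in both ESC lines without dox and at 2.54 and 3.22 FPKM in both XEN-type lines, whereas Gata4 stood below 1 FPKM in the former and at 660 and 337 FPKM in the latter. Day 6, labelled as ESC, had 325 FPKM of Pou5f1 beside 303 FPKM of Gata4. The median gene (among those with at least 5 FPKM in both libraries) stood 0.44 log2 units higher in wild-type XEN than in R1 ESC, 0.36 higher in Sox17-XEN than without dox and 0.25 higher at day 6 than without dox.

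Krt8 and Krt18 were low in ESC, slightly higher in the first 49 h of dox, and high from day 6 onward. Krt8 (ENSMUSG00000049382, mm9 chromosome 15, 101827141 to 101834773) had a level of 37.1 FPKM in R1 ESC and of 15.2 FPKM in the uninduced Sox17 line. After 7, 21, 35 and 49 h of dox its FPKM were 24.6, 38.0, 27.6 and 27.0, and the day 6 library reached 120 FPKM. The XEN-type lines had 302 (Sox17-XEN) and 426 FPKM (wild-type XEN). The 4 libraries from 7 h to 49 h therefore lay no higher than about the level of uninduced R1 ESC, and only day 6 and the XEN-type lines lay clearly above both ESC lines.

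Krt18 (ENSMUSG00000023043, mm9 chromosome 15, 101858646 to 101862457) had the same order of libraries. Its FPKM were 25.7 in R1 ESC, 11.3 in the uninduced line and 15.8, 26.2, 21.0 and 20.3 after 7, 21, 35 and 49 h. Day 6 reached 114 FPKM, Sox17-XEN 179 and wild-type XEN 333. From no dox to day 6 the difference was 2.90 log2 units for Krt8 and 3.22 for Krt18, and from no dox to Sox17-XEN it was 4.23 and 3.87. Most of the difference by day 6 lay after 49 h, with 2.43 for Krt18 and a step just past the threshold for Krt8. For Krt8 that step was 1.89, under the threshold, once libraries were rescaled to the median gene.

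The ratio of Krt8 to Krt18 in FPKM stayed between 1.05 (day 6) and 1.69 (Sox17-XEN) while the levels spanned a 28.1-fold and a 29.5-fold range. Across the 9 libraries, 7 of which come from the same line, their log2 levels had a Pearson correlation of 0.99. The 2 genes are neighbours, 23.87 kb apart with no other row of the table between them. Because they move together and lie side by side, the 250 bases before the start of each are shown as RefSeq gives them for GRCm38.p6, read along the gene's strand, with capitals for matches on either strand to the SOX-type letters ACAATG and, as a second form, ACAAAG, or to the GATA-type letters AGATAA.
Krt8, chr15:102004343-102004592, minus strand: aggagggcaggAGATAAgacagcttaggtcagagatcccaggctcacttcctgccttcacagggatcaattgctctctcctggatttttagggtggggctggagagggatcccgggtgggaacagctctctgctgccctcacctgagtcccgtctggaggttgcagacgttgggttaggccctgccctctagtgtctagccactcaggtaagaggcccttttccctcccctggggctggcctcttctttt
Krt18, chr15:102027966-102028215, plus strand: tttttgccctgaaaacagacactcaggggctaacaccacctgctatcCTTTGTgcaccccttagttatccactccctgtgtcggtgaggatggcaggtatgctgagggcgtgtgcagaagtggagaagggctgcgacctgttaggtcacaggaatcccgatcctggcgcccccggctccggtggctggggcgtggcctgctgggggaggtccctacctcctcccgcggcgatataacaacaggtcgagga
The genes are read away from each other. Krt8 holds AGATAA on its own strand 239 to 234 bases before the start, and Krt18 holds ACAAAG on the opposite strand 203 to 198 bases before the start. Of 32851 promoter windows of this length, 10.7% hold ACAATG, 16.5% ACAAAG and 9.99% AGATAA, so such matches are common. Distances are counted from the annotated start, which for Krt8 and Krt42 may not be the main one: the letters TATAAA, on the gene's strand in 8.32% of all windows with the first 50 transcribed bases included, lie across the annotated start of Krt8 and after that of Krt42.

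Krt8 has a processed copy, and 29.7% of the 50-base windows of its GENCODE M21 transcript also occur in transcripts of other genes, nearly all in Krt8-ps. For the other 7 members the share was at most 3.99% (Krt17, shared mostly with Krt14). Krt8 levels are therefore less certain than the rest to the extent that the authors' counting divided shared fragments.

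**Figure D1:**
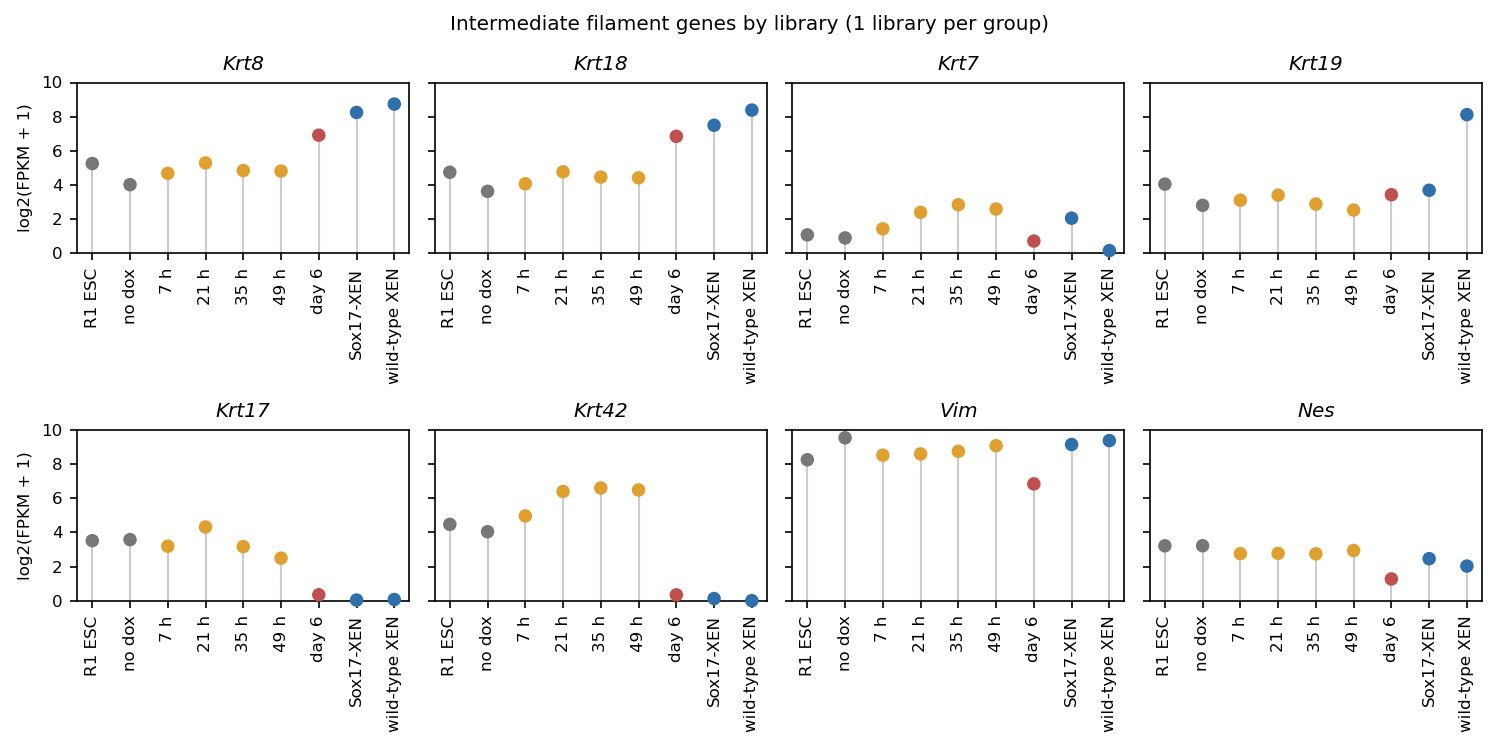
Level of each gene in log2(FPKM + 1) on the y axis for the 9 libraries on the x axis, 1 point per library, with ESC without dox in grey, dox from 7 to 49 h in orange, day 6 in red and the XEN-type lines in blue. Krt8 and Krt18 are highest in blue, Krt42 is highest at 21 to 49 h and near 0 afterwards, Krt19 is high in wild-type XEN alone among these libraries, and Vim and Nes are lowest at day 6.

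Krt19 was the member that separated the 2 XEN-type lines. Krt19 (ENSMUSG00000020911, mm9 chromosome 11, 100002123 to 100009979) stood at 15.5 FPKM in R1 ESC and at 5.98 FPKM before dox. Its FPKM after 7, 21, 35 and 49 h were 7.59, 9.54, 6.34 and 4.76, followed by 9.74 at day 6. Sox17-XEN had 11.9 FPKM, wild-type XEN 277. Every library of the Sox17 line thus lay below R1 ESC, and wild-type XEN lay 17.8-fold above it. Sox17-XEN differed from wild-type XEN by -4.43 log2 units in Krt19, and by -0.49 in Krt8 and -0.89 in Krt18. No replicate of either line exists, and the authors' intervals for Krt19 overlap, with an upper bound of 34.8 FPKM in Sox17-XEN and a lower bound of 0 in wild-type XEN.

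Krt42 was the keratin with the largest difference on the log2(FPKM + 1) scale from 7 to 49 h of dox against no dox, and was near 0 from day 6 onward. By the plain ratio of FPKM Krt7 was above it at 7, 35 and 49 h, with 7.16-fold against 6.22-fold at 35 h. Krt42 (ENSMUSG00000053654, mm9 chromosome 11, 100124195 to 100131185) had 21.2 FPKM in R1 ESC and 15.5 FPKM before dox. After 7, 21, 35 and 49 h its FPKM were 30.2, 83.3, 96.1 and 88.6. Day 6 had 0.265 FPKM and Sox17-XEN 0.0893 FPKM, and wild-type XEN was listed at 0. The libraries at 21, 35 and 49 h exceeded both uninduced ESC lines, by 2.36, 2.56 and 2.45 log2 units over no dox, and day 6 and the XEN-type lines lay far below both. From 49 h to day 6 the difference was -6.15 log2 units, the largest of any member in the 12 comparisons made.

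The Krt42 promoter is shown because the gene was higher within 21 h of Sox17 induction, again as the 250 bases before the RefSeq start in GRCm38.p6 with the same letters in capitals.
Krt42, chr11:100269952-100270201, minus strand: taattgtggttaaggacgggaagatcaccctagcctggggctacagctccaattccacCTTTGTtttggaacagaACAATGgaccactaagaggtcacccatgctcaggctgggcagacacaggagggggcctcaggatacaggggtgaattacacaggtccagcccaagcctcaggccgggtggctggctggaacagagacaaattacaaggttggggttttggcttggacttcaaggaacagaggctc
It holds both SOX-type strings, ACAATG on its own strand 175 to 170 bases before the start and ACAAAG on the opposite strand 192 to 187 bases before it. Promoters were found in the RefSeq table for 6 of the 8 members, and those of Krt7, Krt8, Vim and Nes hold neither string. These distances carry the same doubt about the annotated start. A match of letters is a description and does not show binding.

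Krt17 (ENSMUSG00000035557, mm9 chromosome 11, 100117530 to 100122343) lies 1.85 kb from Krt42 and was likewise near 0 from day 6 onward, without the higher level that Krt42 had at 35 and 49 h. Its FPKM were 10.4 in R1 ESC, 10.9 before dox and 8.13, 19.0, 7.99 and 4.63 after 7, 21, 35 and 49 h. They were 0.271 at day 6, 0.0258 in Sox17-XEN and 0.0476 in wild-type XEN. The 21 h library was the highest, 0.74 log2 units over no dox, and 49 h differed from no dox by -1.08. At day 6 and in Sox17-XEN the differences from no dox were -3.23 and -3.54.

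Krt7 (ENSMUSG00000023039, mm9 chromosome 15, 101241473 to 101260744) was low throughout and highest in the middle of the dox course. Its FPKM were 1.10 in R1 ESC, 0.857 before dox and 1.69, 4.25, 6.14 and 4.99 after 7, 21, 35 and 49 h. They were 0.636 at day 6, 3.14 in Sox17-XEN and 0.110 in wild-type XEN. The differences from no dox at 21, 35 and 49 h were under the threshold, at most 1.94 log2 units (35 h), and 2.18, 2.70 and 2.41 with a pseudocount of 0.1 in place of 1. Krt7 and Krt42 thus shared their highest library, 35 h. Krt7 in Sox17-XEN was 1.90 log2 units above wild-type XEN (3.95 with the smaller pseudocount), the opposite order to Krt19.

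Trophoblast markers were set beside these genes because Krt7, Krt8 and Krt18 are also trophoblast keratins. Of the 10 markers other than Krt7, 8 reached 1 FPKM in some library. Their summed level was 27.7 and 29.9 FPKM in the ESC lines without dox, 61.8 to 70.3 FPKM from 21 to 49 h, 29.9 FPKM at day 6, and 1.55 and 6.76 FPKM in the XEN-type lines. Most of the sum at 21 to 49 h was Tfap2c, a transcription factor gene that pluripotent and germ cells also use, at 51.7 to 60.4 FPKM. At day 6, where the sum equalled that of no dox, its make-up differed. Of the 8 markers, 2 were past the threshold above no dox and 1 below it, beside 9.0% of all genes. Tfap2c, the lower gene, stood at 1.57 FPKM. The higher genes were the placental genes Esx1 and Plac1, at 10.03 and 8.12 FPKM (0.845 and 0.114 FPKM without dox). Eomes stood at 6.57 FPKM against 2.53. Ascl2 was lower than without dox, at 0.335 against 2.16 FPKM. Gata3 was at 0.253 against 0.240 FPKM and Hand1 at 1.40 against 0.795 FPKM. In Sox17-XEN Esx1, Plac1 and Eomes were at 0.356, 0.144 and 0.311 FPKM, and in wild-type XEN at 1.33, 4.15 and 0.0882 FPKM. Plac1 in wild-type XEN was past the threshold above R1 ESC (0.118 FPKM). Cdx2, a defining trophectoderm factor, was at most 0.271 FPKM in the 6 libraries up to 49 h, at 1.61 FPKM at day 6 and at 0.0582 FPKM in Sox17-XEN, and was listed at 0 in wild-type XEN. Their part in the keratin values was not tested.

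Among the 6 keratin members, the mRNA changed from a mixed set to mainly Krt8 with Krt18, with much Krt19 beside them in wild-type XEN. Summed over the 4 type I members, the level was 72.9 FPKM in R1 ESC, 43.7 FPKM without dox, 138 FPKM at 21 h, 124 FPKM at day 6, 191 FPKM in Sox17-XEN and 610 FPKM in wild-type XEN. Krt42 made up 35.4% of that sum without dox, between 60.3% (21 h) and 74.9% (49 h) later in the course, and 0.213% at day 6, when Krt18 made up 91.7%. In Sox17-XEN Krt18 made up 93.7%, and in wild-type XEN Krt18 and Krt19 made up 54.6% and 45.4%. Type II mRNA was mainly Krt8, from 81.8% at 35 h to 100.0% in wild-type XEN. The type I sum exceeded the type II sum 2.73-fold without dox, 3.89-fold at 35 h and 1.03-fold at day 6, and in Sox17-XEN it was 0.626 of it. In wild-type XEN it exceeded type II 1.43-fold, so the XEN-type lines differed in which type was in excess. These are sums of mRNA estimates over 6 genes and not of filament protein. They leave out the type I gene Krt23, at 33.6 FPKM in Sox17-XEN and 18.4 FPKM in wild-type XEN. The type I shares in these lines are therefore of the members only.

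**Figure D2:**
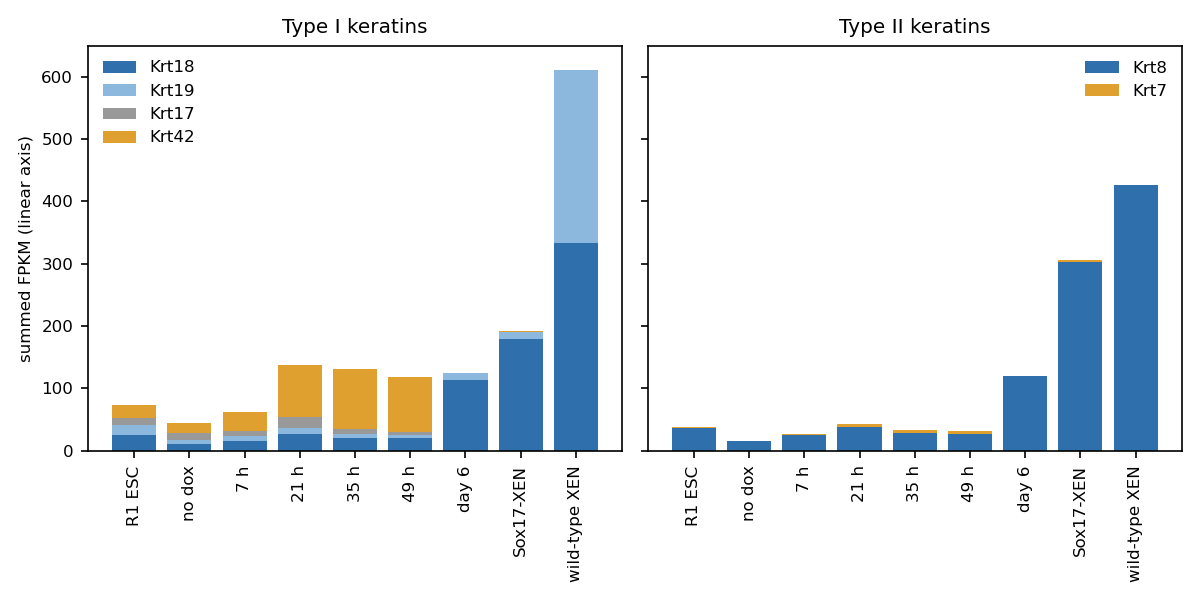
Stacked bars of FPKM (y axis, linear, from 0) for the 4 type I members on the left and the 2 type II members on the right, over the 9 libraries on the x axis. Krt42 fills most of the type I bar from 21 to 49 h, and the type I bar of wild-type XEN, at 610 FPKM, is split between Krt18 and Krt19.

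Vim was lowest at day 6, where its level was close to that of Krt18, and at least 305 FPKM in the other libraries. Vim (ENSMUSG00000026728, mm9 chromosome 2, 13495553 to 13504453) had 305 FPKM in R1 ESC and 745 FPKM before dox. After 7, 21, 35 and 49 h its FPKM were 367, 387, 430 and 540, and at day 6 the level was 114. Sox17-XEN had 567 FPKM, wild-type XEN 665. Day 6 was the lowest library and no dox the highest, with a difference of -2.70 log2 units between them, and Sox17-XEN was 2.31 above day 6. At day 6 the 6 keratins summed to 2.15 times the Vim level, against 0.0802 times without dox and 0.876 and 1.56 times in Sox17-XEN and wild-type XEN.

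Fibroblasts, on which the ESC were grown, carry much Vim. The summed FPKM of 14 feeder markers were 930 in R1 ESC, 2149 before dox and 1024, 1361, 1756 and 2684 after 7, 21, 35 and 49 h. They were 194 at day 6, 837 in Sox17-XEN and 14.4 in wild-type XEN. From 7 to 49 h Vim and the feeder sum stood in the same order, and at day 6 both were at their lowest of the Sox17 line, with 11 of 14 feeder markers past the threshold below no dox. The order did not hold over all libraries of the Sox17 line. No dox had more Vim than 49 h (745 against 540 FPKM) at a smaller feeder sum. Sox17-XEN had more Vim than 7 h (567 against 367 FPKM), also at a smaller feeder sum. The part of feeder RNA in the Vim values of those libraries was not tested. In wild-type XEN 2 of 14 feeder markers reached 1 FPKM. They were Fbn1, at 10.7 FPKM against 8.70 FPKM in R1 ESC, and Acta2, at 1.15 against 204 FPKM. Below 1 FPKM there were, among others, Col1a1 at 0.490 FPKM and Col3a1 at 0.116 FPKM. Vim was at 665 FPKM in wild-type XEN. Endoderm markers also differed between these libraries. Of 8 visceral endoderm markers, 8 were past the threshold above no dox at day 6, and 5 were past it below day 6 in Sox17-XEN. Of 8 parietal endoderm markers, 6 were also past it above no dox at day 6, where Vim was lowest. From day 6 to Sox17-XEN, 5 parietal markers had an estimate in both libraries. Plat, Thbd and Stra6 were past the threshold higher in Sox17-XEN, at 408, 208 and 324 FPKM against 13.6, 5.94 and 15.4 FPKM. Pth1r, at 579 against 175 FPKM, and Srgn, at 944 against 1517 FPKM, were inside it. The part of these endoderm cell states in the Vim values was not tested.

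**Figure D3:**
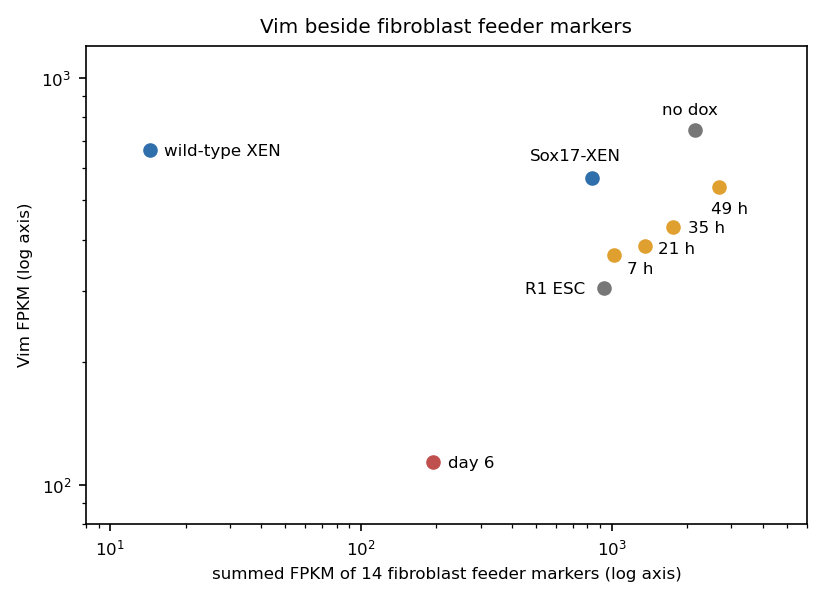
Vim FPKM (y axis, log scale) against the summed FPKM of 14 fibroblast feeder markers (x axis, log scale), 1 labelled point per library. Wild-type XEN has 665 FPKM of Vim at a feeder sum of 14.4 FPKM, and day 6 is low on both axes among the libraries of the Sox17 line.

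Nes (ENSMUSG00000004891, mm9 chromosome 3, 87774999 to 87784373) was low and had its minimum in the same library as Vim. Its FPKM were 8.28 in R1 ESC, 8.31 before dox and 5.75, 5.82, 5.70 and 6.66 after 7, 21, 35 and 49 h. They were 1.41 at day 6, 4.50 in Sox17-XEN and 3.08 in wild-type XEN. The 2 ESC lines without dox gave nearly equal values, and all 3 later states lay below them. Day 6 differed from no dox by -1.95 log2 units, just inside the threshold, and by -2.06 after rescaling. The neural progenitor markers, of which 3 of 7 in the table reached 1 FPKM, summed to 38.5 FPKM before dox and 0.900 FPKM at day 6. Tubb3, a neuronal tubulin gene, was at 36.7 FPKM without dox and 0.148 FPKM at day 6, and Pax6, a neural transcription factor gene, was at 1.13 and 0.532 FPKM. Their part in the Nes values was not tested.

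Counted by comparison, members past 2 log2 units were 5 of 8 between wild-type XEN and R1 ESC (Krt8, Krt18 and Krt19 higher, Krt17 and Krt42 lower), where 14.8% of all genes compared were past it, 8.24% higher and 6.54% lower. Rescaling to the median gene turned that balance, with 779 genes higher and 1104 lower in place of 1234 and 980, and the members' count stayed at 5. Between the 2 ESC lines without dox the count was 0 of 8, against 0.594% of all genes, with differences from -1.25 (Krt19) to 1.29 (Vim). Against no dox the count was 0 at 7 h (0.786% of all genes). Krt42, higher, was the single member past it after 21 h (1.19% of all genes, 0.746% higher), 35 h (1.07%, 0.614% higher) and 49 h (1.17%, 0.706% higher). At day 6 it was 5 of 8 (9.0% of all genes, 5.14% higher and 3.86% lower), with Krt8 and Krt18 higher and Krt17, Krt42 and Vim lower, and the same 5 members were past the threshold from 49 h to day 6 (7.21%, 3.74% higher and 3.47% lower). In Sox17-XEN it was 4 of 8 (10.8%, 5.75% higher and 5.0% lower), the same as at day 6 without Vim. There rescaling gave 581 genes higher and 868 lower in place of 862 and 749, and it turned the balance likewise at day 6 (593 and 654 in place of 771 and 578) and from 49 h to day 6 (422 and 582 in place of 561 and 521). The comparisons with no dox share that library, and those with day 6 share the day 6 library.

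From day 6 to Sox17-XEN, Vim alone was past the threshold, higher (6.59% of all genes, 2.96% higher). Between Sox17-XEN and wild-type XEN it was Krt19 alone, lower (4.32%, 1.59% lower). Day 6 differed from wild-type XEN in Krt19 and Vim, 2 of 8 members, both lower (6.29%, 2.18% lower), with -4.69 and -2.54 log2 units. The members were chosen with results of these data in view, so their shares are given beside those of all genes as a description. The median difference of the 8 members was -1.07 log2 units at day 6 against no dox and 0.25 in Sox17-XEN against no dox, beside 0.10 and 0.17 over all genes.

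XEN-type lines were compared with ESC-type lines by taking 4 libraries as units, 2 against 2. Sox17-XEN derives from the same line as the uninduced Sox17 ESC, so the units are not 4 independent lines, and the fit described first takes no account of that. Krt8 was 3.86 log2 units higher in the XEN-type lines (SE 0.50), Krt18 3.76 higher (SE 0.53), Krt42 lower by a difference of -4.19 (SE 0.32) and Krt17 by -3.49 (SE 0.26). In limma, tested against a difference of at least 2 log2 units, 0 of the 8 passed at an adjusted p under 0.05, with adjusted p = 0.419 for Krt8, 0.528 for Krt18, 0.137 for Krt42 and 0.179 for Krt17. These 4 members had an unadjusted p under 0.05, as did 645 of the 14925 genes in all. That test called 13 of 14925 genes (0.0871%), 6 higher and 7 lower, and 0 genes when any of the 4 libraries was left out or when the wild-type pair and the Sox17 pair were fitted as blocks. Tested in limma against no difference, the same 4 members passed, with adjusted p = 0.0209 for Krt8, 0.0237 for Krt18, 0.0171 for Krt42 and 0.0171 for Krt17, where 21.5% of all genes passed. With the pairs as blocks in limma, a fit added after the data were seen, they passed against no difference with adjusted p = 0.0413 each. In that fit 2199 of 14925 genes passed.

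The other 4 members did not pass either limma test. Krt19 differed by 2.48 (SE 1.63, adjusted p = 0.318 against no difference), with 4.07 in the wild-type pair and 0.88 in the Sox17 pair. It was 0.26 without wild-type XEN and 4.69 without Sox17-XEN. Nes differed by -0.97 (SE 0.33, adjusted p = 0.106), Vim by 0.37 (SE 0.54, adjusted p = 0.640, and -0.02 after rescaling) and Krt7 by 0.12 (SE 0.69, adjusted p = 0.915, and -0.03 after rescaling). Without blocks the p-values measure the spread between lines of a state, where each line is 1 library. With the pairs as blocks they measure how far the 2 pairs differ from each other. An exact permutation test of 2 against 2 cannot go below p = 0.333.

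**Figure D4:**
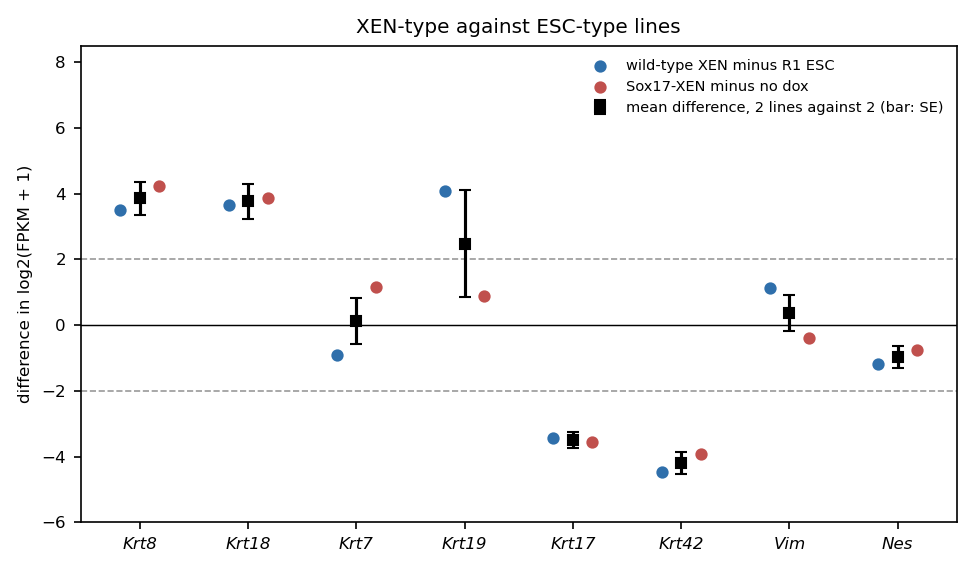
Difference in log2(FPKM + 1) (y axis) for the 8 members (x axis) between XEN-type and ESC-type lines, as black squares with SE bars for 2 lines against 2, blue points for wild-type XEN minus R1 ESC and red points for Sox17-XEN minus the uninduced Sox17 line. Dashed lines mark 2 log2 units, and Krt42 is listed at 0 in wild-type XEN, so its blue point depends on the pseudocount. Krt8, Krt18, Krt17 and Krt42 have like values in both pairs, whereas Krt19, Krt7 and Vim do not.

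Few other keratin genes were expressed. Of 44 other keratin symbols in the table, 5 reached 1 FPKM in any library, and the 39 others did not. Krt23, a type I keratin gene, was the only one of them past 10 FPKM. It was at 0.126 FPKM without dox and at most 0.104 FPKM from 7 h to day 6, but at 33.6 FPKM in Sox17-XEN and 18.4 FPKM in wild-type XEN, both past the threshold above the ESC line of their pair. Unlike Krt8 and Krt18, it was not higher at day 6. Of the stratified epithelium keratins, Krt5, Krt14 and Krt1 stayed below 1 FPKM in every library, and Krt10 ranged from 0.819 to 1.60 FPKM.

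Among 13 further filament genes kept (desmin, neurofilament, lamin and related genes), 1 was lower and 0 were higher at day 6 against no dox, and 3 were lower and 0 higher in Sox17-XEN, beside 9.0% and 10.8% of all genes past the threshold in either direction. Ina, the neuronal filament gene for internexin, had 22.4 FPKM before dox, 56.0 after 7 h and 17.1 after 49 h, against 0.0402 FPKM at day 6 and 0.0169 FPKM in Sox17-XEN. Nefl, the light neurofilament gene, was at 5.40 FPKM without dox, 13.4 FPKM at day 6 and 0.0593 FPKM in Sox17-XEN. Nefh, the heavy neurofilament gene, was at 5.88 FPKM without dox and 0.0316 FPKM in Sox17-XEN. The lamin genes of the nuclear envelope, Lmna and Lmnb1, had 87.4 and 177 FPKM before dox against 108 and 79.3 FPKM at day 6, inside the threshold.

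Of 17 genes for desmosomes, hemidesmosomes and linkers, which tie keratin filaments to the cell surface, 2 were higher and 1 lower at day 6 (9.0% of all genes past the threshold), and 1 was higher and 1 lower in Sox17-XEN (10.8%). The desmosomal cadherin genes Dsg2 and Dsc2 had 5.61 and 0.512 FPKM before dox against 37.2 and 7.92 FPKM at day 6. In Sox17-XEN, where Krt8 and Krt18 were higher still, they were at 0.211 and 0.0458 FPKM, and in wild-type XEN at 10.02 and 1.77 FPKM. Pkp2, which encodes the desmosomal plaque protein plakophilin 2, was at 14.5 FPKM without dox, 2.64 FPKM at day 6, 6.79 FPKM in Sox17-XEN and 36.8 FPKM in wild-type XEN. The integrin gene Itga6, part of the hemidesmosome receptor, was at 43.4 FPKM without dox and 22.5 FPKM at day 6. It was at 230 FPKM in Sox17-XEN and 60.2 FPKM in wild-type XEN. Itgb4, the other integrin gene of this list, went the other way in Sox17-XEN. Its FPKM were 2.67, 1.64, 0.718 and 0.670 in the same libraries.

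Of 21 genes whose products bind or modify filaments, 0 were higher and 2 lower at day 6, a share near the 9.0% of all genes. In Sox17-XEN 1 was higher and 3 lower, of 20 with an estimate, beside 10.8% of all genes. Sfn, the 14-3-3 sigma gene of epithelial cells, was at 39.5 FPKM without dox, 6.20 FPKM at day 6 and 0.182 FPKM in both XEN-type lines. Hspb1, a small heat shock protein gene, was at 196 FPKM without dox, 195 FPKM at day 6, 17.2 FPKM in Sox17-XEN and 0.553 FPKM in wild-type XEN. Pak1, a kinase gene, was at 22.6, 10.4, 1.59 and 0.247 FPKM in the same 4 libraries. Flna, which encodes the actin crosslinker filamin A that also binds vimentin, had its lowest level at day 6, 23.5 FPKM against 164 FPKM without dox, and stood at 189 FPKM in Sox17-XEN.

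Of 11 regulators known from epithelial keratin genes, 1 was higher and 3 were lower at day 6, and 1 was higher and 4 lower in Sox17-XEN, beside 9.0% and 10.8% of all genes past the threshold. The median difference of the list from no dox was 0.41 log2 units at day 6 and -0.24 in Sox17-XEN, beside 0.10 and 0.17 over all genes. Klf4 and Klf5, Krüppel-like factor genes named here after their values were seen, had 41.6 and 34.2 FPKM before dox, 91.9 and 93.1 at day 6 and 236 and 128 in Sox17-XEN, where Klf4 was the gene past the threshold. Grhl2 was at 19.5 FPKM without dox, 0.536 FPKM at day 6, 0.324 FPKM in Sox17-XEN and 3.37 FPKM in wild-type XEN. Grhl3 and Tfap2c were at 12.4 and 52.1 FPKM at 21 h and at 0.761 and 1.57 FPKM at day 6. Esrp1, an epithelial splicing factor gene on this list, was at 21.2 FPKM at day 6 and 1.08 FPKM in Sox17-XEN. Elf3, an epithelial ETS factor gene named here after its values were seen, was the single gene of this list past the threshold at 21, 35 and 49 h, with 16.5 FPKM before dox and 89.1, 86.8 and 74.6 FPKM at these times. It stood at 134 FPKM at day 6, 30.2 FPKM in Sox17-XEN and 100.7 FPKM in wild-type XEN.

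Factors known from the vimentin and nestin genes were counted as 10 rows, 2 of them for Zeb1. At day 6, where Vim and Nes were lowest, 1 was higher and 3 were lower. In Sox17-XEN 1 was higher and 1 lower, beside 9.0% (day 6) and 10.8% (Sox17-XEN) of all genes past the threshold. Sox2 acts on a nestin enhancer in neural cells. It was at 131 FPKM without dox, 1.84 FPKM at day 6, 0.129 FPKM in Sox17-XEN and 0.114 FPKM in wild-type XEN. Nes was at 8.31, 1.41, 4.50 and 3.08 FPKM in the same 4 libraries. Snai1, known for mesenchymal transition, was at 8.52 FPKM without dox, 45.5 FPKM at day 6, 157 FPKM in Sox17-XEN and 69.2 FPKM in wild-type XEN. Snai2 and Zeb1, of the same group of repressors, had 8.46 and 6.75 FPKM before dox against 0.676 and 0.703 FPKM at day 6, for Zeb1 in the larger of its 2 rows. In Sox17-XEN they were at 2.68 and 7.42 FPKM. The part of these factors in the Vim and Nes values was not tested.

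The genes most like each member over the 9 libraries were found by Pearson correlation of log2(FPKM + 1) among 8620 genes, as a description in which 7 libraries share a line. For Krt8 they were Krt18 (0.99), Clu (0.98) and Tmem208 (0.98), and for Krt18 they were Krt8 (0.99), Tmem208 (0.99) and Fkbp2 (0.99). Tmem208 and Fkbp2 spanned a far smaller range, 17.9 to 61.1 and 17.7 to 61.5 FPKM, against 11.3 to 333 FPKM for Krt18. For Krt42 they were Pecam1, Chst10 and Tfap2c (each 0.99), with Pecam1 at 11.6 FPKM without dox, 35.5 FPKM at 21 h and 1.12 FPKM at day 6. For Krt17 they were Anxa11, Camk2b and Pipox (each 0.99), with Pipox at 18.2 FPKM without dox, 27.0 FPKM at 21 h and 0.271 FPKM at day 6. Anxa11 spanned a far smaller range than Krt17, from 14.3 to 67.2 FPKM. The genes most like Krt19 were Btrc (0.98), Abhd10 (0.98) and Mitd1 (0.97), whose own levels spanned a far smaller range, from 3.85 to 10.4 FPKM for Btrc. For Vim the highest values were 0.96 (Hnrnph2), 0.95 (Baiap2) and 0.94 (Tmem184c), and Hnrnph2 itself spanned 26.6 to 37.7 FPKM.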

How the data were processed

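RNA was sequenced from 9 libraries, 1 per group. The deposited table holds FPKM per gene with confidence bounds and a status, made with TopHat2 2.0.11, Cufflinks 2.1.2 and Cuffdiff on mm9, per the submitters' processing notes. The annotation and the use of strand are not given in the sources used here. Values with a status other than OK were treated as missing. A filter kept the 15082 rows that reached 1 FPKM in some library, with 8 of 8 members, and log2(FPKM + 1) was used. Pairs of single libraries have no test, and 12 were compared by a difference of at least 2 log2 units. The 4 lines without dox in their medium at sampling, as their labels are read here, were compared with limma 3.58.1 in R 4.3.3 (empirical Bayes, mean trend, two-sided, Benjamini-Hochberg over all genes). The fit was tried on simulated data with equal noise in every gene and independent lines. That trial does not cover genes of unequal spread or lines that share an origin, so it does not give the error rate here. Python 3.11.15, numpy 2.4.6, pandas 2.3.3 and matplotlib 3.10.9 were used otherwise. Named genes were the 8 members, up to 4 genes past the threshold of each of 6 lists, other keratins past 10 FPKM, and the 3 genes most like each member with at least 10 FPKM. Further genes are named to check labels, as markers, or as said in place. The 6 gene lists and 8 marker lists, the members and the motifs were chosen with earlier results of these data, or the sequences, known. Relative depth is the commonest ratio of values under 0.5 FPKM (within 0.02 log2 units), which 4.73% to 10.7% of these values share. Alternatives were other pseudocounts, filters, scalings, thresholds, left-out lines and, added later, a block for the 2 pairs of lines.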

Additional observations from a re-analysis of the deposited data

Results flagged for a closer look

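Krt7 and Vim differed in direction between the 2 pairs of XEN-type and ESC-type lines. Krt7 was at a difference of -0.92 log2 units in wild-type XEN against R1 ESC and of 1.16 in Sox17-XEN against the uninduced Sox17 line. Vim was at 1.12 and -0.39 in the same pairs, where the feeder marker sum was 14.4 against 930 FPKM and 837 against 2149 FPKM. With 1 library per group these differences between pairs were not tested.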

How the results depend on the processing

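Each group has 1 library, so leaving out a library was possible only in the comparison of lines, and the absolute depth is unknown. The labels give no replicate numbers. With a block for each pair of lines, a fit added after the data were seen, the replicate block left 0 genes and 0 members past a difference of at least 2 in limma (649 genes at an unadjusted p under 0.05), and 2199 genes and the 4 members Krt8, Krt18, Krt17 and Krt42 against no difference. In limma against a difference of at least 2, 13 genes and 0 members passed. The count of genes was 105 (1 member, Krt17) with a pseudocount of 0.1, 0 without a filter on low values, 49 with a minimum of 5 FPKM and 61 without a mean trend, and against no difference it was 3205 with 4 members. Without each line in turn, where the lone line of a state is assumed to vary like the other state, the count of genes was 0 to 0 and that of members 0 to 0. The mean difference of Krt7 was -0.38 with a pseudocount of 0.1 and -0.031 after rescaling, and ranged from -0.83 (without Sox17-XEN) to 1.07 as lines were left out. That of Vim was -0.025 after rescaling and ranged from -0.28 (without R1 ESC) to 1.01. Where the authors' intervals also had to lie apart, 0 members were past the threshold in every pair. At 1 log2 unit 4 members were past between the ESC lines, beside 5.36% of all genes. Against no dox the member counts were 1 at 7 h (3.03% of all genes), 4 at 21 h (5.08%) and 2 at 35 h (4.62%). Later they were 3 at 49 h (5.54%), 6 at day 6 (30.3%) and 5 in Sox17-XEN (35.2%). They were 7 for wild-type XEN against R1 ESC (41.7%) and 7 for day 6 against 49 h (25.8%). Sox17-XEN had 4 against day 6 (20.4%) and 2 against wild-type XEN (15.8%), and day 6 had 4 against wild-type XEN (21.2%). With a pseudocount of 0.1, Krt7 made the member counts 2 at 21 h (2.84%), 35 h (2.60%) and 49 h (3.04%) against no dox. It also made them 2 for Sox17-XEN against day 6 (13.0%) and for Sox17-XEN against wild-type XEN (10.5%). With that pseudocount they were 6 for wild-type XEN against R1 ESC (27.9%). They were 6 for day 6 against no dox (17.8%) and 7 for day 6 against 49 h (15.0%). The listed values of failed estimates and the lack of a filter changed no member count between pairs.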
